A study of Bos taurus with 29 samples.

Results

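The genes described here encode mitochondrial ribosomal proteins, chosen as the rows of the corpus luteum count table whose symbols begin with MRPL or MRPS and a number. There were 76 such genes, 48 named MRPL and 28 named MRPS, of 19112 genes in the table. All 76 were among the 18939 genes kept by the filter on low counts. The RefSeq gene table names 78 genes of this kind, and MRPL16 and MRPS18B had no row and were not analysed here. The corpus luteum is the ovarian gland that secretes progesterone. Its bovine (Bos taurus) tissue came from a slaughterhouse and was sequenced as polyA RNA in 4 groups of 3 libraries. The group CL-NC was taken as the control. CL-CM-EE is read here as tissue exposed to medium of endometrial explants cultured without an embryo, and is called the explant group. CL-CM-EE-AI, the in vivo embryo group, had medium of explants kept with a single in vivo embryo, and CL-CM-EE-IVF, the in vitro embryo group, with a single in vitro embryo, each embryo being at day 7. CM is read as conditioned medium, which the labels do not spell out. The 3 libraries of a group are numbered R2, R4 and R5. The labels say neither what an R number marks nor whether the libraries of a group came from separate animals, so p-values measure only the spread between these libraries. The sample titles of R2 carry other prefixes than those of R4 and R5, and the labels do not say what a prefix marks. The count table does not give transcript lengths, so a gene's level is compared between libraries, and levels of different genes are given only as shares of counts, which also depend on length.

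Mitochondria keep their own ribosome, which translates the few proteins encoded by mitochondrial DNA, all of them parts of the respiratory chain and the ATP synthase. Its ribosomal RNAs are transcribed inside the organelle, whereas all its proteins are encoded in the nucleus, made in the cytosol and imported. The large subunit holds the peptidyl transferase centre and the exit tunnel, and the small subunit binds the mRNA and decodes it. Many of its proteins have bacterial relatives, and others are found in mitochondria alone. Luteal cells are rich in mitochondria, where cholesterol is cleaved to pregnenolone in the first step of progesterone synthesis.

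By protein name the 76 genes fell into 50 of the large subunit, of which 28 have bacterial relatives and 22 are mitochondria-specific, and 25 of the small subunit, of which 16 have bacterial relatives and 9 are mitochondria-specific. MRPS18A and MRPS30 count among the 50 because their proteins sit in the large subunit despite their names. MRPS36 is now known as a subunit of the 2-oxoglutarate dehydrogenase complex and was placed in neither subunit.

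The 12 libraries held between 16536797 and 25747637 counts, and mitochondrially encoded transcripts took between 44.4% and 64.0% of them. The 76 genes together took between 0.0485% and 0.103% of the counts, and between 0.135% and 0.201% once mitochondrially encoded transcripts were set aside. A single gene had between 8 and 4443 counts in a library, with a median of 138. Luteal steroidogenic markers (7 genes, STAR and CYP11A1 among them) were detected in all 12 libraries. Of the epithelial markers, EPCAM was at 0 in 4 libraries, and KRT8, KRT18 and CDH1 were detected in all 12. In bulk tissue, fewer cells of a type and less RNA per cell cannot be told apart. One library, in vivo embryo R4, stood apart for the mitochondrial ribosomal protein genes, and results that rest on it are given with and without it.

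CPM is each gene's share of a library's counts, scaled by the TMM method. The counts include the mitochondrially encoded transcripts, which lowers the share of every other gene. Of the 76 genes, 21 had a mean of 10 CPM or more over the 12 libraries. Their levels were not set against those of all genes. MRPS6, a small subunit protein of the platform, had the highest mean, 98.6 CPM, and took 13.8% of the counts of the 76 genes. MRPL45, which ties the tunnel exit to the inner membrane, followed with 28.6 CPM and MRPS35, a mitochondria-specific small subunit protein, with 25.5 CPM. At the other end stood MRPL28 at 1.25 CPM, MRPS12, a protein of the decoding centre, at 1.82 CPM and MRPL54 at 2.49 CPM. MRPL28 had only 8 to 49 counts in a library.

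The genes varied among themselves in steadiness. The coefficient of variation over the 12 libraries was lowest for MRPS18C (0.161), MRPL22 (0.164) and MRPL9 (0.197), and highest for MRPL45 (0.776), MRPS14 (0.551) and MRPL33 (0.540). MRPS18C, 1 of several paralogs of a small subunit protein, ranged from 2.75 to 4.59 CPM, and MRPL22, at the tunnel exit, from 4.26 to 7.90 CPM. The ratio of the highest to the lowest library had a median of 3.03 over the 76 genes. edgeR's biological coefficient of variation within groups had a median of 0.371 for these genes and 0.444 for all genes tested.

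**Figure D1:**
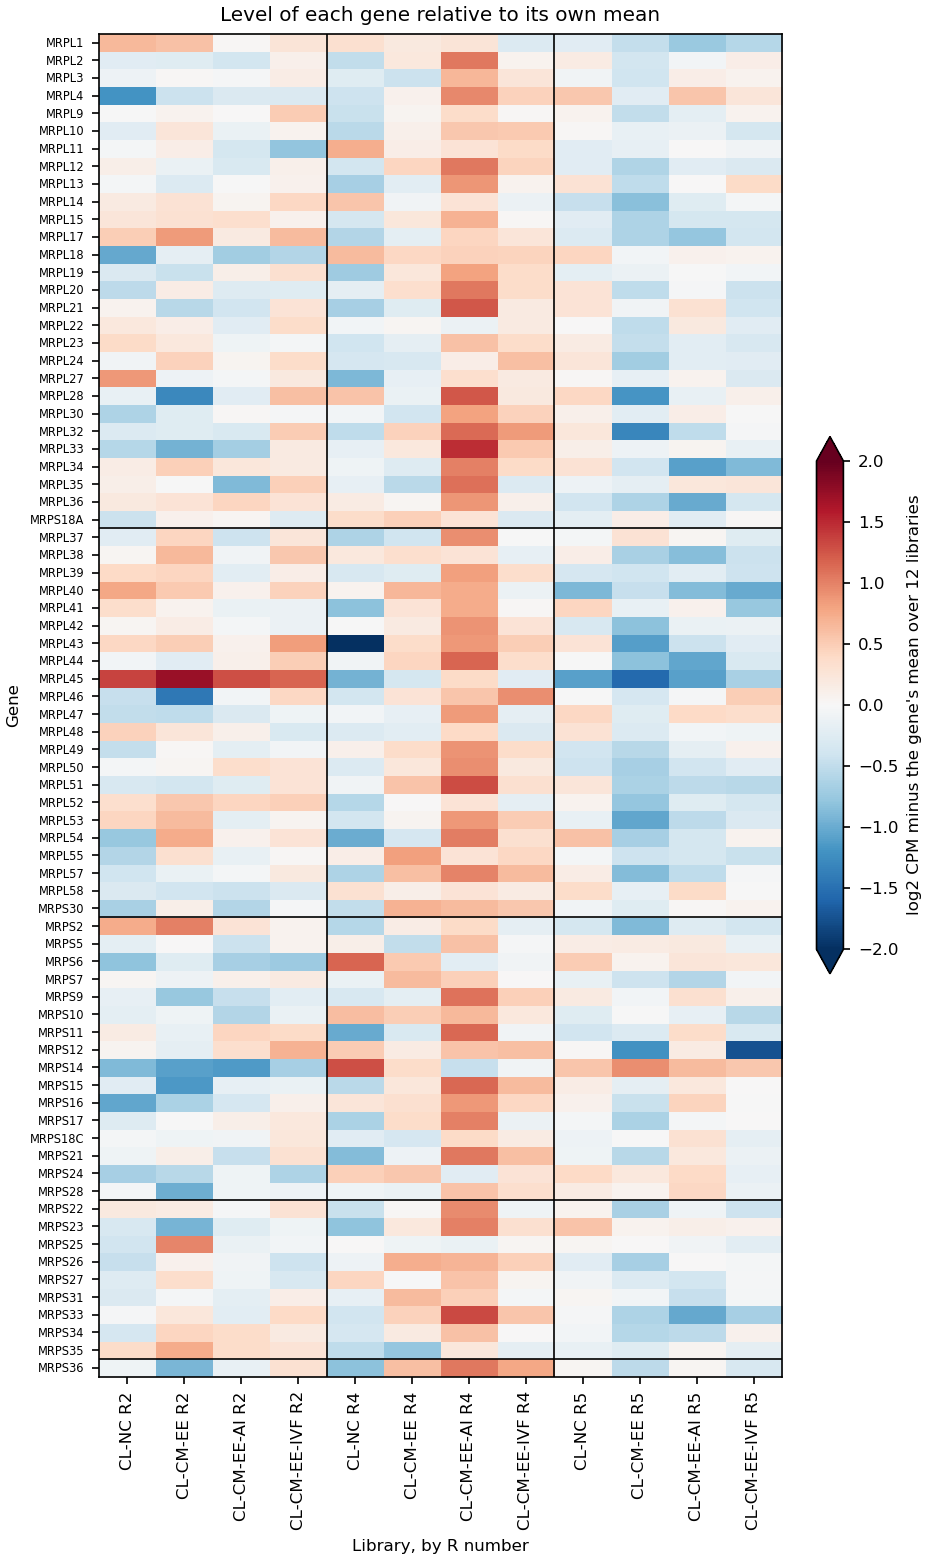
Each row is 1 of the 76 genes and each column 1 of the 12 libraries, ordered by R number, with colour giving log2 CPM minus the gene's mean over all libraries. Black lines separate, from top to bottom, large subunit genes with bacterial relatives, mitochondria-specific large subunit genes, the same pair for the small subunit, and MRPS36. The column of CL-CM-EE-AI R4, the in vivo embryo library, is red for most rows, and the row of MRPL45 is darkest red in the 4 R2 columns.

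In the library in vivo embryo R4 the mitochondrial ribosomal protein genes were high together. Their summed level was 1018 CPM there and between 548 and 765 CPM in the other 11 libraries. This library gave the highest value of 47 of the 76 genes, and 71 lay above their own mean, with a median deviation of 0.72 on the log2 scale. The large subunit summed to 603 CPM there against 264 to 462 CPM elsewhere. Without MRPS6, which alone can carry a sum, the small subunit reached 324 CPM against 185 to 225 CPM elsewhere. With MRPS6 included, its sum was higher in control R4, at 411 CPM, than the 402 CPM in in vivo embryo R4. MRPL33, a small protein of the large subunit, was at 23.8 CPM there and at no more than 12.2 CPM in any other library. MRPL22, MRPS6, MRPS14, MRPS24 and MRPS25 were the 5 that did not lie above their mean there. MRPS6 and MRPS14 had 78.8 and 6.74 CPM in ranges of 52.4 to 204 and 4.22 to 22.9 CPM.

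Other gene lists were high in that library too. The 81 nuclear-encoded respiratory subunits summed to 2824 CPM against 895 to 1865 CPM elsewhere, and 5 further mitochondrial ribosomal proteins with other names (DAP3, AURKAIP1, CHCHD1, PTCD3 and GADD45GIP1) to 62.2 CPM against 30.8 to 49.6 CPM. The luteal steroidogenic markers summed to 5751 CPM against 1311 to 3291 CPM, and the epithelial markers to 111 CPM against 7.06 to 67.9 CPM, mostly KRT8 and CDH1. The 79 cytosolic ribosomal proteins were within their range elsewhere, at 10472 CPM against 5671 to 13823 CPM. The part of these lists in the result was not tested. The lowest sum of the 76 genes, 548 CPM, was in explant R5, which gave the lowest value of 21 genes.

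**Figure D2:**
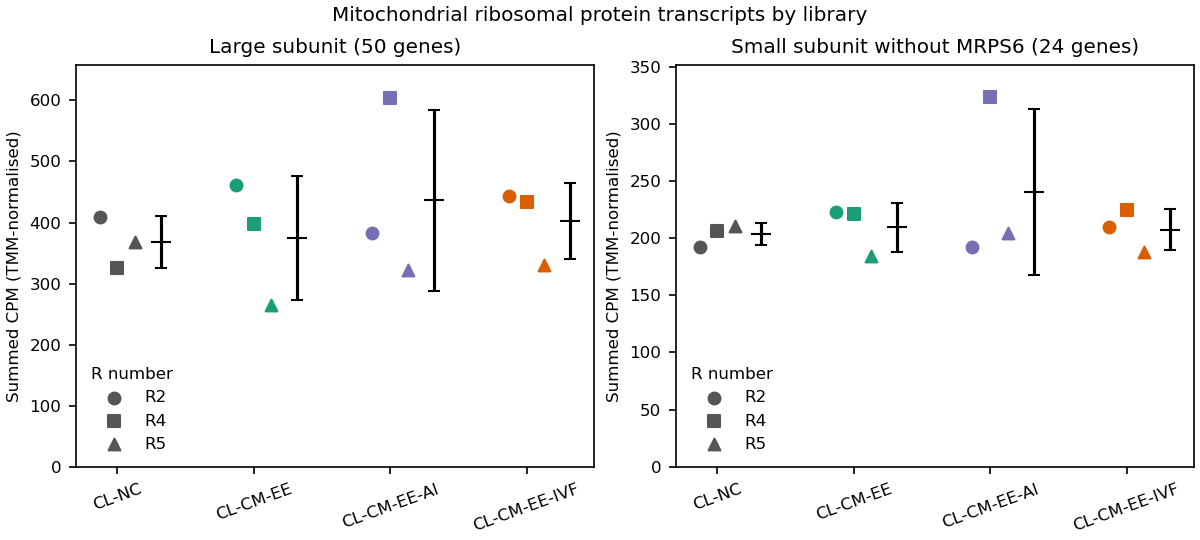
Points give the summed CPM of the large subunit (left) and of the small subunit without MRPS6 (right) in each library, with the R number as the symbol. The bar beside each group is the mean ± SD of its 3 libraries. The in vivo embryo library R4 (CL-CM-EE-AI R4) lies above all other libraries in both panels, at 603 and 324 CPM. With MRPS6 included (not drawn), the small subunit is higher in CL-NC R4, at 411 against 402 CPM.

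The in vivo embryo group against the control group asks how tissue with medium of explants and an in vivo embryo differed from its control. Of the 76 genes, 61 had a log2 fold change above 0 and their median was 0.35, beside 0.03 for all genes tested. No gene passed an adjusted p of 0.05 by edgeR (background 0% of all genes), and 2 of the 76 had an unadjusted p under 0.05, beside 1.12% of all genes tested. These were MRPS11, a platform protein of the small subunit, and MRPL19, a large subunit protein near the subunit interface. MRPS11 was at 4.26, 7.13 and 4.10 CPM in R2, R4 and R5 of the in vivo embryo group and at 3.56, 1.52 and 2.41 CPM in the control group. Every in vivo embryo library lay above every control library, and the log2 fold change was 1.05 (95% interval 0.18 to 1.92). MRPS11 is described for its low p, so this lack of overlap is no separate support. MRPL19 was at 4.89, 7.98 and 4.49 CPM against 3.66, 2.71 and 3.92 CPM, again without overlap, a log2 fold change of 0.75 (0.01 to 1.5). Next by p came MRPS17, another small subunit protein, at 0.73 (-0.03 to 1.49). Lower in the in vivo embryo group by the fit, without passing, were MRPS6 at -0.67 (-1.64 to 0.31), MRPS14 at -0.71 (-2.07 to 0.65) and MRPL1, of the stalk where spent tRNA leaves, at -0.39 (-1.20 to 0.42).

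The median of this comparison rested on in vivo embryo R4. Within R2 the median difference of the 76 genes between the 2 libraries was 0.02, with 39 above 0, and within R5 it was -0.02, with 33 above 0. Within R4 it was 0.94, with 65 above 0. Without in vivo embryo R4 the fitted median was -0.03 and 36 genes lay above 0. MRPS11 then stood at 0.75, MRPL19 at 0.45 and MRPS17 at 0.33, and 0 of the 76 genes had an unadjusted p under 0.05. That count was also 0 without control R4, 1 without control R5, 3 without in vivo embryo R2 and 4 without in vivo embryo R5. Without control R4, where MRPS6 and MRPS14 had their highest values, MRPS6 was at -0.17 and MRPS14 at -0.15. In the full comparison the respiratory subunits had a median of 0.49, with 80 of 81 above 0. Within R2, R4 and R5 it was -0.01, 1.43 and -0.16, and without in vivo embryo R4 the fitted median was 0.02, with 48 above 0. The luteal steroidogenic markers had a median of 0.95, with 7 of 7 above 0, and of 0.07, with 4 above 0, without that library, their sums ranging from 1396 to 5751 CPM in the in vivo embryo group and from 1341 to 1751 CPM in the control group. The part of the markers in the result was not tested.

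The in vivo embryo group against the explant group asks what the in vivo embryo added to the explant medium. The median of the 76 genes was 0.27, with 58 above 0, beside 0.06 for all genes tested. Again 0% of all genes were called, and 2 of the 76 genes, MRPS11 and MRPL28, had an unadjusted p under 0.05, beside 1.28% of all genes. MRPS11 was at 2.84, 2.53 and 2.59 CPM in the explant group, below every in vivo embryo library, a log2 fold change of 0.96 (0.09 to 1.83). MRPL28 was at 0.942, 2.77 and 1.00 CPM in the in vivo embryo group and at 0.398, 1.01 and 0.439 CPM in the explant group, with in vivo embryo R2 and R5 just under explant R4, a log2 fold change of 1.35 (0.04 to 2.66). MRPL3, next to the peptidyl transferase centre, followed at 0.55, and at 0.31 without in vivo embryo R4. In the other direction stood MRPS25 at -0.50, MRPL55 at -0.38 and MRPL38 at -0.35, the last 2 at -0.57 and -0.63 without that library. Within R2, R4 and R5 the medians of the 76 genes were -0.15, 0.62 and 0.30. Without in vivo embryo R4 the fitted median was -0.05, with 34 above 0, and MRPS11 and MRPL28 stood at 0.65 and 0.66. The count with an unadjusted p under 0.05 was then 0, and it was 1 without explant R2 or R5, 3 without in vivo embryo R5 and 6 without in vivo embryo R2. The median was 0.10 without explant R5 and 0.41 without explant R2, the latter with MRPS25 at -0.06.

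The in vitro embryo group against the control group puts the question for an embryo made in vitro. The median was 0.13, with 54 of 76 above 0, beside -0.04 for all genes. The adjusted test called 0% of all genes, and 0 of the 76 genes had an unadjusted p under 0.05, beside 1.48% of all genes. MRPL46, a mitochondria-specific protein of the central protuberance, had the lowest p. It was at 3.48, 5.01 and 3.68 CPM in the in vitro embryo group and at 1.86, 1.98 and 2.56 CPM in the control group, without overlap, a log2 fold change of 0.93 (-0.05 to 1.90). MRPL19 followed at 0.63 (-0.12 to 1.37), with 5.69, 5.85 and 4.37 CPM in the in vitro embryo group, all above the control libraries. MRPS30, a large subunit protein, was at 0.61. On the other side stood MRPS6 at -0.64, MRPL48 at -0.43 and MRPL1 at -0.44. MRPS6 was at 52.4, 204 and 129.9 CPM in the control group and at 54.9, 86.9 and 107 CPM in the in vitro embryo group, and its value became -0.14 without control R4. Within R2 and R4 the medians of the 76 genes were 0.25 and 0.44, and within R5 -0.14.

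The in vitro embryo group against the explant group gave a median of 0.11, with 50 above 0, beside -0.02 for all genes. Here 0% of all genes passed, and 1 of the 76, MRPL46, had an unadjusted p under 0.05, beside 1.5% of all genes. It was at 0.896, 3.14 and 2.02 CPM in the explant group, below all in vitro embryo libraries, a log2 fold change of 1.01 (0.03 to 1.99) that became 0.66 without explant R2. The count was 0 without explant R5 or any 1 of the in vitro embryo libraries and 2 without explant R4. MRPL28 was at 1.20 and MRPL3 at 0.42. All 3 in vitro embryo libraries of MRPL3, at 20.5, 21.9 and 19.5 CPM, lay above those of the explant group, at 18.8, 13.6 and 14.0 CPM. The lowest p below 0 belonged to MRPS25 at -0.47, MRPS18A, a large subunit protein, at -0.41 and MRPS2, a small subunit protein with a bacterial relative, at -0.44. Without explant R2, MRPS25 was at -0.02 and MRPS2 at 0.16. The median turned to -0.07 without explant R5, and within R2, R4 and R5 it was 0.12, 0.10 and 0.22.

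Between the embryo groups, the in vitro embryo group against the in vivo embryo group, the median was -0.17, with 17 of 76 above 0, beside -0.07 for all genes. Adjusted calls were at 0% of all genes, and 0 of the 76 genes had an unadjusted p under 0.05, beside 0.671% of all genes. MRPS11, at 4.12, 2.99 and 2.53 CPM in the in vitro embryo group, had the lowest p, with a log2 fold change of -0.68 (-1.54 to 0.18), and MRPL41 and MRPL48 followed at -0.54 and -0.39. Above 0 stood MRPL46 at 0.46, MRPL24 at 0.29 and MRPL22 at 0.17, the last 2 at the tunnel exit. Without in vivo embryo R4 the median turned to 0.17, with 59 above 0, and MRPS11, MRPL41, MRPL48 and MRPL46 were at -0.38, -0.23, -0.26 and 0.70. Within R2, R4 and R5 the median was 0.21, -0.49 and -0.04.

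The explant group against the control group, which asks about the medium of explants alone, gave a median of -0.01, with 37 above 0, beside -0.03 for all genes. As in the other comparisons 0% of all genes were called, and 0 of the 76 genes had an unadjusted p under 0.05, beside 0.75% of all genes. MRPL28 was lowest by p, at 1.00, 1.70 and 1.52 CPM in the control group, a log2 fold change of -1.19 (-2.50 to 0.11), with MRPL58 and MRPS28 at -0.29 and -0.30. MRPL58 is a peptidyl-tRNA hydrolase that frees stalled ribosomes. Above 0 stood MRPS30 at 0.63, MRPS25 at 0.49 and MRPL55 at 0.46. MRPS25 rested on explant R2, where it was at 19.8 CPM against 9.37 and 10.1 CPM in R4 and R5, and its value without that library was 0.02. MRPS30 was at 0.34 without explant R4, and the median of the 76 genes was 0.15 without explant R5. Within R2, R4 and R5 the medians of the 76 genes were 0.09, 0.42 and -0.41.

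The 6 comparisons share libraries, so their values are not independent of each other. Where a gene described for its low p had no overlap between groups, this partly follows from that choice. How many of all genes had no overlap was not counted, so nothing is read from it. The same holds for the comparisons between R numbers. Counts of genes with an unadjusted p under 0.05 in fits without 1 library stand without the share of all genes. Such counts show only how far they depend on single libraries. The 6 comparisons also left room for large changes. The 95% interval of a gene's log2 fold change reached 0.85 to 0.86 to either side in the median. In the in vivo embryo group against the control group the upper bound lay above 1 for 52 of the 76 genes and the lower bound under -1 for 12. The missing calls therefore do not show that these genes were equal between groups.

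**Figure D3:**
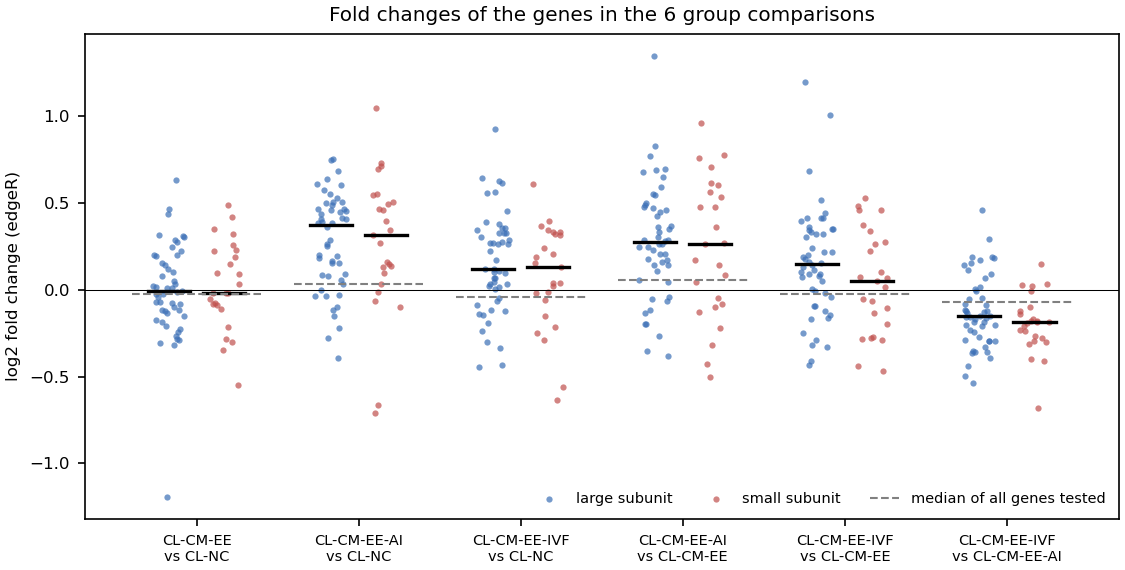
Each point is the edgeR log2 fold change of 1 gene in 1 of the 6 group comparisons, blue for the 50 large subunit genes and red for the 25 small subunit genes. Black bars are subunit medians and the dashed line is the median of all genes tested. In the in vivo embryo group against the control group the subunit medians are 0.37 and 0.31, above the 0.03 of all genes, and -0.05 and 0.02 without in vivo embryo R4 (not drawn).

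The medians of the large and of the small subunit genes were -0.01 and -0.02 in the explant group against the control group, 0.37 and 0.31 in the in vivo embryo group against the control group, 0.27 and 0.26 in the in vivo embryo group against the explant group, 0.12 and 0.13 in the in vitro embryo group against the control group, 0.15 and 0.05 in the in vitro embryo group against the explant group, and -0.15 and -0.19 in the in vitro embryo group against the in vivo embryo group. Without in vivo embryo R4, the medians of the in vivo embryo group against the control group were -0.05 and 0.02, against the explant group -0.08 and 0.04, and those of the in vitro against the in vivo embryo group 0.21 and 0.05. Within R5 alone the in vivo embryo group against the control group gave -0.14 and 0.06. Within R4 the explant group against the control group gave 0.42 and 0.13. The difference between the subunits was not tested.

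By role, the first set was the stalk proteins, which recruit translation factors. MRPL12, the stalk protein proper, was at 8.63 ± 1.57 CPM (SD, n = 3) in the control group, 9.27 ± 3.34 in the explant group, 11.9 ± 6.97 in the in vivo embryo group and 10.3 ± 2.62 in the in vitro embryo group. The in vivo embryo mean of MRPL12 rested on R4, at 20.0 CPM beside 7.67 and 8.16 CPM in R2 and R5. Without in vivo embryo R4, MRPL12 had a log2 fold change of -0.12 against the control group. MRPL10 and MRPL11, at the stalk base, had log2 fold changes of 0.36 and -0.22 in the in vivo embryo group against the control group. In the core, MRPL2 and MRPL4 were at 0.51 and 0.69 in that comparison and MRPL3 at 0.44. With in vivo embryo R4 left out, MRPL10, MRPL11, MRPL2, MRPL4 and MRPL3 were at 0.11, -0.38, -0.05, 0.38 and 0.20, so that MRPL2 changed sign. MRPL3 was at 16.7 ± 1.05 CPM in the control group and at 22.6 ± 5.98 in the in vivo embryo group, with R4 alone at 29.4 CPM.

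Around the tunnel exit, MRPL22, MRPL23 and MRPL24 were at -0.10, 0.05 and 0.04 in the in vivo embryo group against the control group, and MRPL44, a protein related to RNase III, at 0.39. These were -0.06, -0.24, -0.03 and -0.33 without in vivo embryo R4. MRPL44 was at 3.59, 7.64 and 1.57 CPM in R2, R4 and R5 of the in vivo embryo group, so its SD of 3.09 CPM there was above that of 0.091 in the control group. Of the mitochondria-specific large subunit proteins, MRPL37 and MRPL39 were at 0.58 and 0.26, and at 0.11 and -0.17 without that library. MRPS30 was at 3.87 ± 0.837 CPM in the control group and 6.01 ± 2.04, 5.48 ± 2.30 and 5.92 ± 1.32 CPM in the explant, in vivo embryo and in vitro embryo groups, and these ranges overlapped.

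In the small subunit, MRPS15 and MRPS16, which bind its ribosomal RNA, were at 0.69 and 0.55 in the in vivo embryo group against the control group, and MRPS5 and MRPS7, with bacterial relatives, at 0.15 and 0.14. MRPS12 was at 0.16. The mitochondria-specific MRPS22, MRPS26 and MRPS34 were at 0.40, 0.51 and 0.46, whereas MRPS27, an RNA-binding pentatricopeptide repeat protein, and MRPS35 were at 0.03 and 0.27. MRPS27 was at 24.8 ± 6.29 CPM in the control group and 25.3 ± 8.74 in the in vivo embryo group. MRPS36, outside the ribosome, was at 0.67. Leaving out in vivo embryo R4 gave MRPS15 and MRPS16 at 0.22 and 0.25, and MRPS5, MRPS7 and MRPS12 at -0.11, -0.12 and 0.04. MRPS22, MRPS26 and MRPS34 were then at -0.02, 0.23 and 0.23, MRPS27 and MRPS35 at -0.28 and 0.27, and MRPS36 at 0.20. None of the genes of these role groups passed the test with all 12 libraries.

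Unlike the groups, the R numbers gave calls among these genes. With the group held in the model, edgeR called 13 of the 76 genes (17.1%) in at least 1 of the 3 comparisons between R numbers, where 30.1% of all genes tested were called. R4 against R2 had 6 of the 76 genes higher and 2 lower, beside 8.72% and 4.93% of all genes. R5 against R2 had 3 higher and 6 lower, beside 11.5% and 9.26%. R5 against R4 had 0 higher and 3 lower, beside 5.58% and 8.67%. In each direction the count of the 76 genes lies below the same share of 76 in this fit of all 12 libraries, so nothing particular to these genes is read from it. The medians of the 76 genes were 0.22, -0.14 and -0.37, beside 0.04, 0.08 and 0.08 for all genes, and 52, 27 and 7 lay above 0. Without in vivo embryo R4 they were 0.04, -0.14 and -0.22, and without in vivo embryo R2 the first was -0.01.

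MRPL45 was the clearest case. In R2 it was at 55.3, 71.2, 52.9 and 48.2 CPM in the control, explant, in vivo embryo and in vitro embryo groups, the order used from here on. In R4 these were 11.1, 16.8, 28.1 and 18.3 CPM, and in R5 10.1, 7.25, 10.1 and 13.7 CPM. All 4 R2 libraries lay above the other 8. MRPL45 fell by 1.67 on the log2 scale in R4 against R2 (adjusted p = 0.0014 by edgeR) and by 2.49 in R5 against R2 (adjusted p = 7.34e-05). Both calls held in all 17 alternative settings. NPEPPS, an aminopeptidase gene that neighbours MRPL45 in the RefSeq table and was looked up after these values were seen, was lower as well, with log2 fold changes of -1.07 and -1.88, whereas GPR179, the neighbour on the other side, was not called. The 26 nearest tested neighbours of the 13 genes, all looked up then, gave 40 values beside the 20 calls. Of these, 9 were called in the direction of their gene, 5 in the opposite direction and 26 not at all. Among all genes, 4.93% to 11.5% were called in each direction of these comparisons. Some neighbours enter the 40 values more than once, and the part of neighbours in the results was not tested. Below, only neighbours that were called are named. The sources used here do not say whether counting used strand.

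MRPS14, a protein of the head of the small subunit, was low in R2. It was at 5.02, 4.38, 4.22 and 5.86 CPM there, at 22.9, 12.1, 6.74 and 8.88 CPM in R4 and at 13.9, 17.8, 14.6 and 13.6 CPM in R5, with R2 below all other libraries. It rose by 1.63 in R5 against R2 (adjusted p = 0.00197 by edgeR), a call held in all 17 settings, and by 1.27 in R4 against R2 (adjusted p = 0.0128). The latter was lost without control R2, at 0.99, and without explant R2, at 1.04. Its neighbours in the RefSeq table moved in opposite directions. CACYBP rose by 1.94 in R4 and by 1.72 in R5 against R2, and TNN fell by 1.12 and by 1.30.

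MRPL18, of the central protuberance, was at 5.37, 9.71, 6.77 and 7.26 CPM in R2 and at 17.2, 14.6, 15.1 and 15.1 CPM in R4, without overlap. It rose by 1.09 (adjusted p = 0.00541 by edgeR), also held in all settings. In R5 it was at 14.8, 10.5, 11.7 and 11.6 CPM, and its rise of 0.74 over R2 was called in 8 of 17 settings. It was lost without control R2 or R5, explant R5, in vivo embryo R2 or R5, or in vitro embryo R2 or R5, with the lowest value, 0.40, without control R2. It was lost too with RLE scaling, at 0.63, and without mitochondrially encoded transcripts, at 0.64. The neighbours of MRPL18, TCP1 and PNLDC1, rose by 0.80 and 1.68 in R4 against R2, and PNLDC1 by 2.15 in R5 against R2. MRPS6 rose by 0.97 in R4 and by 0.85 in R5 against R2. Without control R2 these were 0.62 and 0.49, and neither passed. The first was lost also without explant R4, at 0.95, and the second without control R5, explant R2, in vivo embryo R2 or R5, or in vitro embryo R2 or R5, at 0.74 to 0.89. MRPS6 was at 52.4, 77.3, 57.5 and 54.9 CPM in R2, below every R4 and R5 library.

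Of the 6 genes lower in R5 than in R2, 5 were of the large subunit, which holds 50 of all 76 genes, so nothing is read from that count. MRPL40, of the central protuberance, was at 5.37, 4.53, 3.32 and 4.33 CPM in R2, at 3.27, 5.0, 5.27 and 2.87 CPM in R4 and at 1.62, 2.24, 1.67 and 1.5 CPM in R5. Every R5 library lay below the other 8, with log2 fold changes of -1.34 against R2 and -1.21 against R4 (adjusted p = 0.0074 and 0.0189 by edgeR). Its neighbour SLC25A1 rose by 0.77 in R5 against R2. MRPL1 was at 26.3, 25.2, 17 and 20.1 CPM in R2 and at 14.3, 12, 9.93 and 11.2 CPM in R5, without overlap, a log2 fold change of -0.90. Its neighbour CNOT6L was lower as well, at -0.52. MRPL17, near the tunnel exit, was at 28.1, 36, 22.6 and 30.8 CPM in R2 and at 16.4, 13.0, 11.6 and 15.4 CPM in R5, a log2 fold change of -1.06. Its neighbours moved in opposite directions there, LOC783920 at 1.70 and DCHS1 at -0.62. The R5 against R2 calls of MRPL40, MRPL1 and MRPL17 held in all 17 settings. Against R4, those of MRPL40 and MRPL1 were lost without any of in vitro embryo R5, in vivo embryo R5, in vivo embryo R4 or explant R4, at values from -1.22 to -0.98 and from -0.70 to -0.49, and that of MRPL1 also without explant R5.

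The remaining called genes were less firm. MRPS10, a head protein, was at 15.1, 16.2, 11.4 and 15.8 CPM in R2, at 26.6, 24.4, 27.1 and 19.9 CPM in R4 and at 14.6, 17.2, 15.5 and 11.7 CPM in R5, so that R4 stood above both others. Its log2 fold changes were 0.74 in R4 against R2 and -0.74 in R5 against R4. The first was lost without control R2, in vivo embryo R2 or explant R2, at 0.63, 0.49 and 0.61, and the second without in vitro embryo R5, in vivo embryo R5 or in vivo embryo R4. MRPS2 and MRPL52 fell by 1.02 and 0.76 in R5 against R2 and were called in 13 and 11 of 17 settings. MRPS2 was lost without control R2, explant R2 or R5, or in vivo embryo R5, at -1.04 to -0.95, and its neighbour PPP1R26 rose by 1.47. MRPL52 was lost without explant R4 or R5, in vivo embryo R5, or any in vitro embryo library, at -0.77 to -0.72. MRPS35 fell by 0.74 in R4 against R2, called in 13 settings and lost without control R4, explant R4, or in vitro embryo R4 or R5, at -0.82 to -0.56. MRPL33 and MRPL58 rose by 1.04 and 0.56 in R4 against R2, called in 5 and 2 settings. They were lost when 10 and 12 of the 12 libraries were left out in turn, and both also with RLE scaling and without mitochondrially encoded transcripts, MRPL58 with DESeq2 as well. MRPL33 was at 0.67 without in vivo embryo R4.

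**Figure D4:**
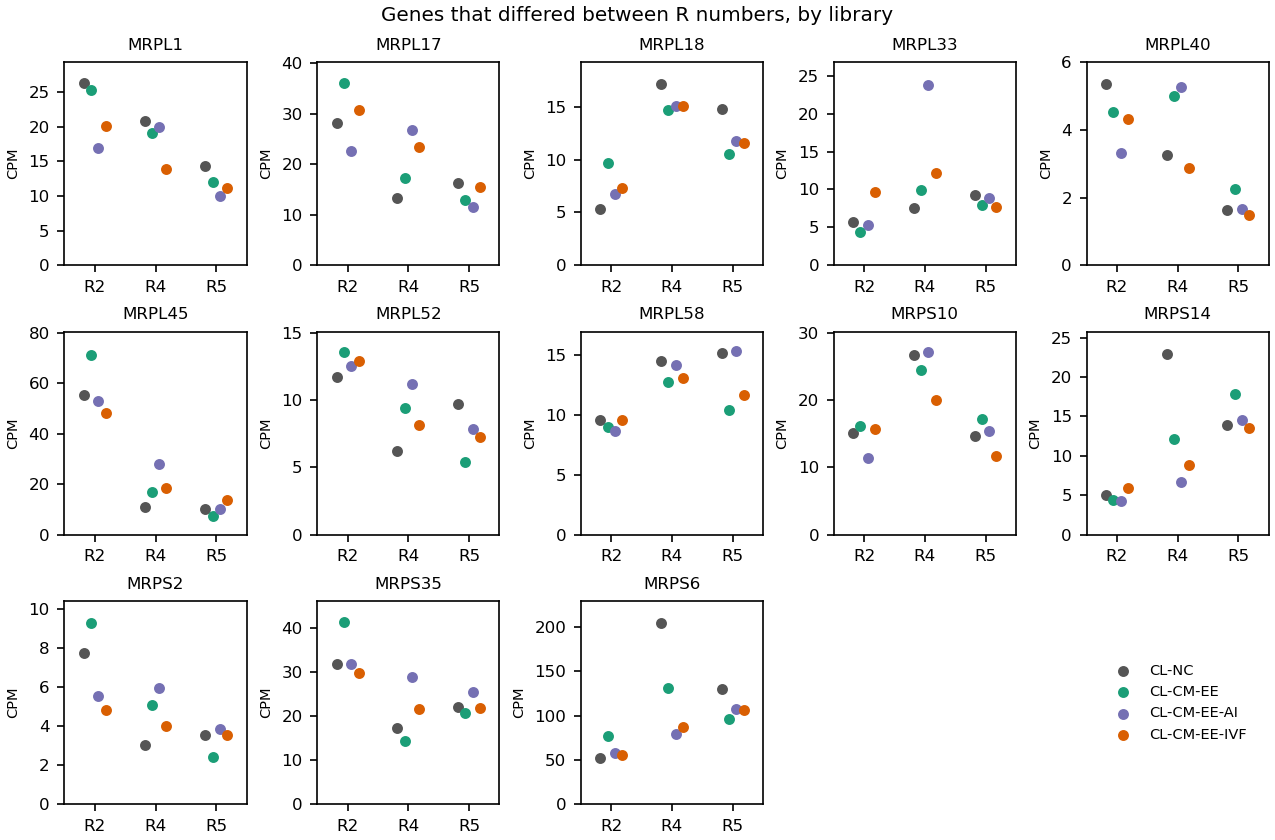
Each panel gives the CPM of 1 of the 13 genes called between R numbers in the 12 libraries, grouped by R number and coloured by group. MRPL45 is highest in R2 and MRPS14 lowest there, and MRPL40 is lowest in R5, in all 4 groups.

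The number of calls among the 76 genes depended on single libraries. In R4 against R2 it was 3 without control R2, 4 without explant R2 or explant R4, and 5 without in vivo embryo R2, in vitro embryo R4 or in vitro embryo R5. In R5 against R2 it was 5 without in vivo embryo R5 and 14 without control R5. In R5 against R4 it was 0 without in vivo embryo R4, in vivo embryo R5 or in vitro embryo R5, 1 without explant R4, 6 without explant R2 or in vivo embryo R2, 7 without control R2, 12 without control R5 and 14 without control R4. Over all genes, leaving out 1 library gave 1391 to 2526, 2441 to 4347 and 1214 to 2949 calls in the 3 comparisons. These are not matched to each setting, so no count is read against the share of all genes.

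Some cell type markers were also called between R numbers, as were 30.1% of all genes in at least 1 of these comparisons. In a single comparison and direction the share of all genes was 4.93% to 11.5%. Macrophage, T cell, erythrocyte and endometrial epithelium markers gave at most 1 call per direction and comparison and are listed with the data processing. Of the 7 luteal steroidogenic markers, 3 were higher in R4 than in R2 and 4 were lower in R5 than in R4, and 1 (LHCGR) was higher in R5 than in both. Their sum ranged from 1311 to 2274 CPM in R2, from 1571 to 5751 in R4 and from 1330 to 2013 in R5. Of the 6 endothelial markers, 3 (PECAM1, CDH5 and VWF) were lower and 2 (TEK and EMCN) higher in R4 than in R2, and the sums were 1165 to 1429, 706 to 1041 and 732 to 1035 CPM in R2, R4 and R5. Of the 6 fibroblast markers, 3 were lower in R4 and 4 in R5 than in R2, with sums of 618 to 998, 243 to 973 and 323 to 399 CPM. Of the 5 smooth muscle and pericyte markers, 4 were higher in R4 than in R2 and 3 lower in R5 than in R4. They summed to 279 to 389, 302 to 566 and 169 to 241 CPM. Of the 4 epithelial markers, 1 was higher in R4 than in R2, 1 lower in R5 than in R2 and 2 lower in R5 than in R4, with sums of 15.0 to 25.9, 19.6 to 111 and 7.06 to 9.41 CPM. The part of these cell types in the results was not tested.

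Other genes of mitochondrial translation gave 0 calls by edgeR in the 6 group comparisons, as did all genes. The lowest p in each list belonged to CHCHD1 at 0.86 and RBFA, a ribosome maturation factor, at 1.05 in the in vivo embryo group against the control group, to TSFM, an elongation factor, at 0.85 in the in vitro embryo group against the explant group, to HARS2, which charges histidine tRNA, at 0.88 in the in vitro embryo group against the control group, and to MTERF1, of mitochondrial transcription, at 0.68 in the in vivo embryo group against the explant group. Between R numbers, none of the 5 further mitochondrial ribosomal proteins and none of 9 translation factors were called. Of 24 assembly and rRNA modification genes, 2 were higher in R4 than in R2, NOA1 at 1.72 and NGRN at 0.81, and in R5 against R2 METTL17 and RPUSD3 were higher and NSUN4 lower. In R5 against R4, METTL17 was higher and NOA1 and MPV17L2 lower. Of 20 genes of tRNA charging, 3 were higher and 1 lower in R4 than in R2, and 5 were higher in R5 than in R2, with 1 higher and 1 lower in R5 than in R4. GATB was at 1.33 and WARS2 at -0.84 in R4 against R2. LRPPRC, which stabilises mitochondrial mRNAs, rose by 1.31 in R4 and by 1.04 in R5 against R2, and POLRMT, the mitochondrial RNA polymerase, by 1.17 in R5 against R2.

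The mitochondrial ribosomal protein genes were set beside those of cytosolic ribosomal proteins and nuclear-encoded respiratory subunits, and beside the mitochondrially encoded RNAs. All values are of RNA. Of 79 cytosolic ribosomal protein genes, 44 were lower in R4 and 55 lower in R5 than in R2, with medians of -0.72 and -0.75, where the 76 mitochondrial ones had medians of 0.22 and -0.14. Of 81 nuclear-encoded respiratory subunits, 2, 10 and 18 were lower in R4 against R2, R5 against R2 and R5 against R4, and none higher, with medians of 0.23, -0.43 and -0.65. Of the 13 mitochondrially encoded mRNAs, 5 were lower in R4 than in R2, 3 were higher in R5 than in R2 and 11 were higher in R5 than in R4, with medians of -0.56, 0.24 and 0.95. In R5 against R4 the mitochondrially encoded mRNAs thus had a median above 0 while the genes of the ribosome that translates them had one of -0.37. The 2 mitochondrial ribosomal RNAs were not called in any comparison, and their sum ranged from 105190 to 177086 CPM. The differences between these lists were not tested.

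**Figure D5:**
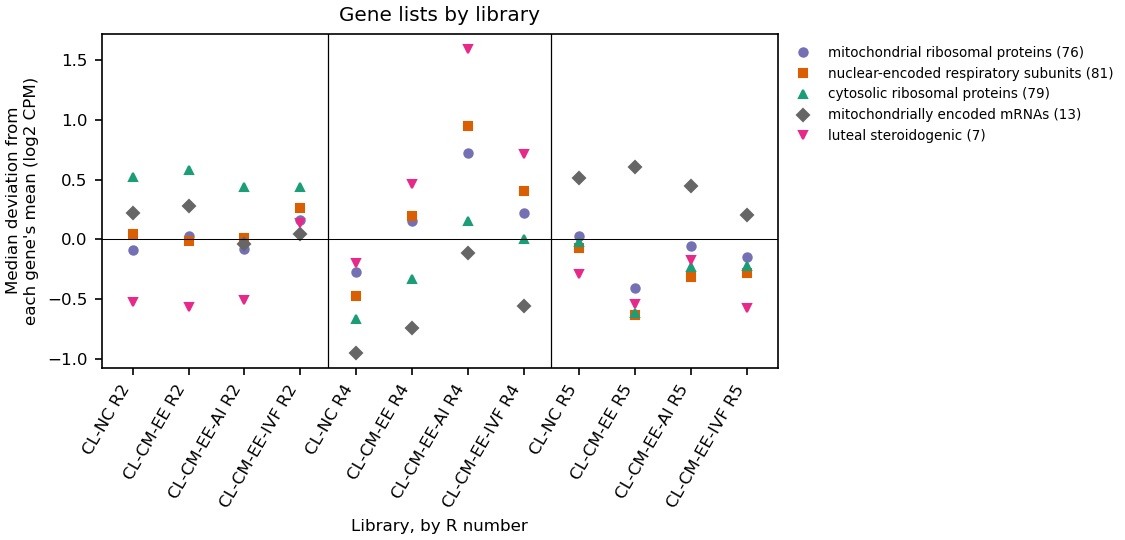
Points give, for each library, the median over the genes of a list of log2 CPM minus the gene's mean over the 12 libraries, with list sizes in the legend. The mitochondrial ribosomal proteins reach 0.72 in the in vivo embryo library R4 (CL-CM-EE-AI R4), where the respiratory subunits and luteal steroidogenic markers are also at their highest, and the cytosolic ribosomal proteins are highest in R2.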

How the data were processed

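The 20 corpus luteum samples map by label to 12 columns of a count table. R4 and R5 have 2 samples for each column, with no account here of how these were joined. Trim Galore, cutadapt, STAR and featureCounts are named in the submitters' processing notes, and their versions, genome build, annotation and strand setting were not given in the sources used here. Every count value that the authors deposited was whole and not normalized. The columns treated under the unit expected count also held whole deposited values, so rounding changed none. The 9 endometrial samples were not used here.

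Genes were filtered with filterByExpr (173 removed), scaled by TMM and tested with the quasi-likelihood test of edgeR 4.0.16 in R 4.3.3 with Benjamini-Hochberg adjustment at 0.05, over all genes. The 6 group comparisons came from 1 fit over 12 libraries, and the 3 R-number comparisons from a fit that also held the group. Intervals are 95%. Alternatives were RLE scaling, DESeq2 1.42.0, no filter, removal of mitochondrially encoded transcripts, a replicate block, only the groups compared, no group term and each library left out. A replicate block without CL-CM-EE-AI R4 was added after seeing the data. The test was checked on simulated counts. Library totals set the counting precision.

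Members, lists and role panel were chosen with earlier results of these data known. Named genes were a panel by role, the 3 lowest p in each direction, called members and extremes of level and variation. The subunit classes and neighbours were set after values were seen. DDX28, MTG1, MTRFR, MARS2 and AIF1 were not analysed here. Macrophage, T cell, erythrocyte and endometrial epithelium markers gave 1, 0, 0 and 0 genes higher and 0, 0, 1 and 0 lower in R4 against R2, 1, 0, 0 and 0 higher and 1, 0, 1 and 0 lower in R5 against R2, and 0 higher and 0, 0, 0 and 1 lower in R5 against R4.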

Additional observations from a re-analysis of the deposited data

Results flagged for a closer look

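The summed level of the 76 genes in CL-CM-EE-AI R4, 1018.32 CPM, lay far from the other 3 R4 libraries, which were between 739 and 759.979 CPM. Its gap to the nearest of them was 0.925 of the whole range of the 4 libraries, above Dixon's 95% critical value for 4 samples. It was 1 of 48 sets of 4 libraries examined, and chance alone marks about 1 in 20 such sets. The sums of the large and of the small subunit were among those sets, and neither was flagged in R4. MRPS6 was highest in CL-NC R4, which raised that library's sum. Without MRPS6 the sum was 940 CPM in CL-CM-EE-AI R4. It was 535, 629 and 669 CPM in R4 of CL-NC, CL-CM-EE and CL-CM-EE-IVF, a set that was not examined.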

How the results depend on the processing

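In the 6 group comparisons, edgeR called 0 genes as fitted, and 0 were called under all 75 alternatives, DESeq2 included. At an unadjusted p under 0.05 the edgeR counts were 127 to 285 genes. Leaving out 1 library moved the median of the 76 genes in CL-CM-EE-IVF against CL-CM-EE from 0.11 to between -0.0747 and 0.26. MRPS2 in that comparison, -0.44, ranged from -0.82 to 0.16, the latter without CL-CM-EE R2, and was the 1 named fold change to reverse.

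With the replicate block the 6 medians were -0.03 for CL-CM-EE and 0.27 for CL-CM-EE-AI against CL-NC, 0.13 for CL-CM-EE-IVF against CL-NC, 0.26 for CL-CM-EE-AI against CL-CM-EE, 0.16 for CL-CM-EE-IVF against CL-CM-EE, and -0.14 for CL-CM-EE-IVF against CL-CM-EE-AI, with 0 genes called. In the same order 1, 2, 2, 8, 2 and 0 of the 76 genes had an unadjusted p under 0.05, against 0, 2, 0, 2, 1 and 0 without the block. The share of all genes with the block is not given here, so nothing particular to the 76 genes is read from these counts. With CL-CM-EE-AI R4 also left out, the 3 medians that use that group were -0.02, -0.02 and 0.14. Same-numbered libraries had correlated deviations in 15 of 18 pairs above 0.1 (0.0813 to 0.662), and the 36 pairs that differ in number and group ranged from -0.490 to 0.198. The 12 pairs within a group, whose deviations share 1 group mean, ranged from -0.679 to -0.231. Among the libraries of other groups, all 12 correlated best with one of their own number, a hint from the data and not from the design.

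Between R numbers, R5 against R2 called 15 of the 76 genes with DESeq2 and 14 without the group term, and R5 against R4 called 13 and 12. The shares of all genes in those settings are not given here, so these counts are not read against them. Leaving out 1 library gave 3 to 12 calls among the 76 genes in R4 against R2, 5 to 14 in R5 against R2 and 0 to 14 in R5 against R4. Calls over all genes were 1391 to 2526, 2441 to 4347 and 1214 to 2949. The median in R5 against R2 ranged from -0.47 to -0.0542. Of 340 repeats of the 20 calls, 76 lost the call and 0 reversed, and 7 calls held in all 17 settings. The cause was not tested.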
